A study of Mus musculus with 15 samples.

Results

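Skeletal muscle contracts when calcium leaves the sarcoplasmic reticulum and relaxes when it is pumped back. The 10 genes described here encode the main parts of that cycle: the voltage sensor Cacna1s, its adaptor Stac3, the release channel Ryr1, the store proteins Casq1 and Casq2, the pumps Atp2a1 and Atp2a2, the pump inhibitors Sln and Pln, and the cytosolic calcium buffer Pvalb. They were chosen by gene symbol, with earlier results of these data known, and each matched 1 row among the 56953 genes in each of the authors' tables. All 10 were read in all 15 libraries.

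Bulk RNA sequencing was done on wild-type (WT) mice of strain 129, labelled as 10-week-old males and numbered at 10 animals. Muscle stem cells (MuSCs) are the satellite cells that repair muscle. They were obtained by biopsy, in 3 libraries after and 3 libraries before the mice received their own cells back, and the later biopsy was taken from an area without transplanted cells. Quadriceps femoris muscle gave 6 libraries from transplanted and 3 from sham-operated mice. The treatment entry of the sham libraries also reads as transplanted, and their titles were used to assign them. Libraries are named by group and mouse number: after and before 5, 6 and 11, transplanted 4, 5, 6, 11, 14 and 94, and sham 3, 12 and 192. Muscle was deposited in separate tables, one with transplanted 4, 14 and 94 and shams 3 and 192 (the 2-sham table), the other with transplanted 5, 6 and 11 and sham 12 alone (the 1-sham table).

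Levels are in TPM, the deposited unit that scales counts for gene length and library total, so that genes can be compared. Total estimated counts were 17.09 to 22.98 M (M for mega) in each library. Mitochondrial genes took 1.20% of counts in after 11, against 4.44% to 6.28% in the other MuSC libraries and 9.29% to 15.96% in muscle. Against the label of male, Xist exceeded the sum of 4 Y-linked genes in 14 of the 15 libraries. The exception, transplanted 4, had 0.01 TPM of Xist and 0.11 TPM of the Y-linked sum. The defining MuSC markers (Pax7, Myf5, Vcam1, Itga7 and Cdh15) summed to 285 to 459 TPM in MuSC libraries and 31.8 to 44.7 TPM in muscle. MuSC libraries also held differentiating myoblast markers (Myod1, Myog, Mymk and Mymx), at 666 to 1420 TPM in sum. Mature myofibre markers summed to 1790 to 4780 TPM after and 3309 to 6177 TPM before transplantation, with after 11 lowest, and to 57587 to 76392 TPM in muscle.

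In a muscle fibre, an action potential moves the voltage sensor in the surface membrane, which is coupled to Ryr1 in the reticulum. Calsequestrins hold calcium inside the reticulum near Ryr1, and SERCA pumps return it after each contraction. Fast fibres use mainly Atp2a1 and Casq1 and are rich in Pvalb, while Atp2a2 and Casq2 are the slow-fibre and cardiac paralogs. Pln and Sln are small membrane peptides that inhibit the pumps.

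Promoters of 4 members are shown because they belong to fast-fibre members abundant in muscle (Casq1, Atp2a1 and Pvalb) and to Casq2, the calsequestrin that leads in MuSCs. They run from 250 bases before to 50 bases after the start site (RefSeq, GRCm38.p6), and 7 of the 10 members matched that table. Capitals mark the E-box letters CANNTG, the core that myogenic bHLH factors bind, and matches to the MEF2 motif, each searched on both strands. Casq1 is at chr1:172219846-172220145 (minus strand), Casq2 at chr3:102086165-102086464 (plus strand), Atp2a1 at chr7:126463024-126463323 (minus strand) and Pvalb at chr15:78206351-78206650 (minus strand).
Casq1: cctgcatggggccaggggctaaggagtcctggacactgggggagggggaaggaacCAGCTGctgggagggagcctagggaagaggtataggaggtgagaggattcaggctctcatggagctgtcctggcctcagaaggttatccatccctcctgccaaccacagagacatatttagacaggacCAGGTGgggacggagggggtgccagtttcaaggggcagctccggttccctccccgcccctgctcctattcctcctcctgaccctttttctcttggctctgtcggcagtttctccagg
Casq2: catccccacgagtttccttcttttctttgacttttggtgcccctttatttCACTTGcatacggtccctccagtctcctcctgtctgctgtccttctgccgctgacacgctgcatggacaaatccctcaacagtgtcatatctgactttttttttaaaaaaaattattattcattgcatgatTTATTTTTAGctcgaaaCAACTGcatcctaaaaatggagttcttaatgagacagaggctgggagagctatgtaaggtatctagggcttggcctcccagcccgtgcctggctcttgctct
Atp2a1: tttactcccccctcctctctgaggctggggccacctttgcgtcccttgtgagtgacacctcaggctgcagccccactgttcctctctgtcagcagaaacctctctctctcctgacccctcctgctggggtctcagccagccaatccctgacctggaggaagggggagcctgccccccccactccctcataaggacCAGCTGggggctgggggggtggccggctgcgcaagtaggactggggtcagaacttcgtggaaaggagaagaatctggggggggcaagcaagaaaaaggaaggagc
Pvalb: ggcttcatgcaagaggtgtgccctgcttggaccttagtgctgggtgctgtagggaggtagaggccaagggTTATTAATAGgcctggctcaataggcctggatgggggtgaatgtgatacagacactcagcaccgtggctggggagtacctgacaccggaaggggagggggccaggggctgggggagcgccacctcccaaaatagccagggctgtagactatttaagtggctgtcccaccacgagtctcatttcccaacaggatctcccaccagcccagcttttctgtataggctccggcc
The Casq1 window held 2 E-boxes, with first bases at -195 and -67 from the start site. The Casq2 window held 2 E-boxes, at -200 and -52, and a MEF2 match at -69. The Atp2a1 window held 1 E-box, at -55. This Pvalb window held no E-box and had a MEF2 match at -180, while a second Pvalb promoter, not shown, had 2 E-boxes and no MEF2 match. The windows of Cacna1s, Pln and Ryr1, also not shown, held no MEF2 match. Cacna1s and Pln had 2 E-boxes each and Ryr1 had none. E-box letters occur in 72.3% and the MEF2 motif in 3.19% of the 32851 promoters of that length, so the E-box is a common match and the MEF2 motif a rarer one. A match is a description of these letters only.

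Muscle and MuSC levels are set side by side in TPM. Since these tissues were deposited in separate tables, no test was made between them. All muscle libraries were above all MuSC libraries for 8 of the 10 members, against 16.2% of 13776 genes with a mean of at least 1 TPM in either tissue. No member showed the opposite order, which held for 40.9% of those genes. Sln, Pln and Pvalb, at a MuSC median of 0 TPM, reached the minimum through muscle alone. The opposite order was thus closed to them, and the shares over all genes are no measure for them. Atp2a2 and Casq2 were the members whose ranges overlapped. In bulk samples, fewer cells of a type and less RNA per cell cannot be told apart.

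**Figure D1:**
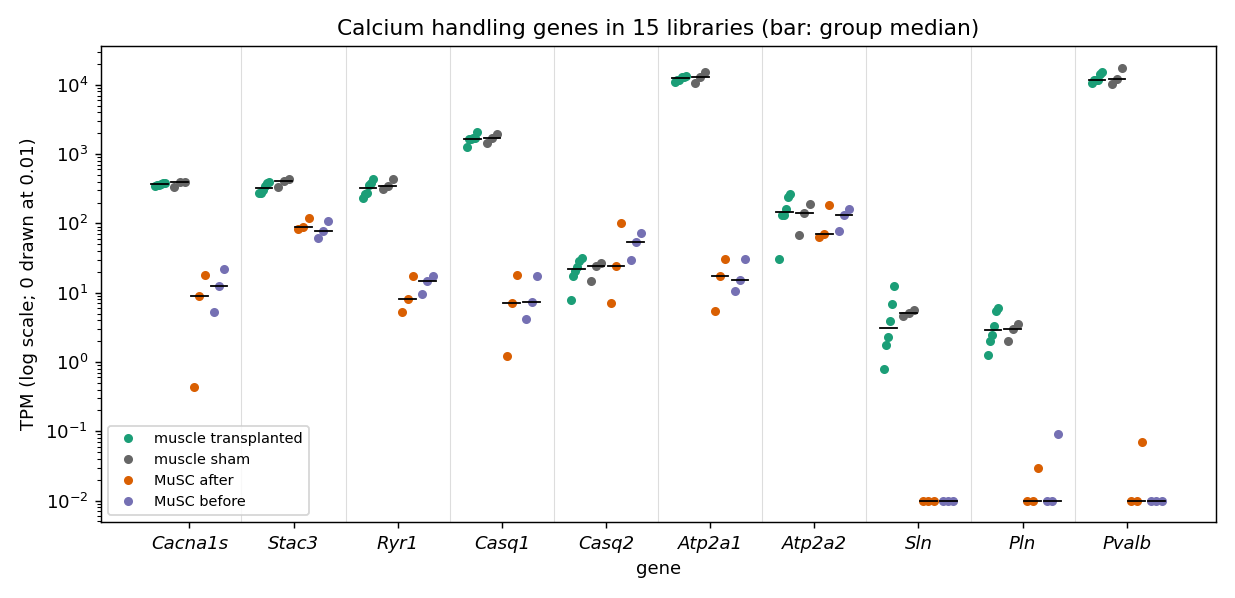
TPM of the 10 members (log axis, 0 drawn at 0.01) in each of the 15 libraries, by group, with a bar at the group median. Atp2a1 and Pvalb are the highest members in all muscle libraries, Atp2a2 and Casq2 overlap between muscle and MuSCs, and Sln, Pln and Pvalb are at or near 0 in MuSCs.

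The voltage sensor and the release channel were both far higher in muscle than in MuSCs. Cacna1s, the pore-forming voltage sensor, had 346, 365 and 379 TPM (lowest, median, highest) in transplanted muscle and 334, 392 and 396 TPM in sham muscle. In MuSCs it had 18.3, 8.87 and 0.44 TPM in after 5, 6 and 11, against 21.9, 12.4 and 5.31 TPM in before 5, 6 and 11. After 11 stood far below the other MuSC libraries. Ryr1, the release channel, had 231, 321 and 442 TPM in transplanted muscle and 310, 348 and 433 TPM in sham muscle. Ryr1 had 17.7, 8.15 and 5.25 TPM in after 5, 6 and 11, against 17.4, 9.56 and 14.7 TPM in before 5, 6 and 11. Median muscle TPM was thus 35.1 times the median MuSC TPM for Cacna1s and 28.7 times for Ryr1. The ratio of Cacna1s to Ryr1 TPM was 0.809 to 1.5 in muscle. It was 0.0838 in after 11 and 0.362 in before 11, against 1.04 to 1.29 in the other 4 MuSC libraries, so both libraries of mouse 11 held less sensor per channel.

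Stac3, the adaptor that the voltage sensor needs to couple to Ryr1, was closer between the tissues. Transplanted muscle had 271, 323 and 397 TPM (lowest, median, highest) and sham muscle 331, 402 and 433 TPM. After 5, 6 and 11 had 87.7, 82.5 and 119 TPM, against 108, 78.2 and 62.1 TPM in before 5, 6 and 11. The muscle median was 4.05 times the MuSC median. After 11 was the highest MuSC library for Stac3 and the lowest for Cacna1s, at 270 Stac3 TPM per Cacna1s TPM. That ratio was 4.80 to 11.7 in the other MuSC libraries and 0.768 to 1.11 in muscle. Its paralog Stac2 was named after the values were seen: it had 0 to 0.12 TPM in muscle and 48.3 to 81.1 TPM in MuSCs, opposite in order to Stac3.

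The calcium stores differed by paralog. Casq1, the fast-fibre calsequestrin, had 1261, 1677 and 2089 TPM in transplanted muscle and 1439, 1727 and 1918 TPM in sham muscle. Its values were 18.2, 7.14 and 1.24 TPM in after 5, 6 and 11, against 17.5, 7.25 and 4.24 TPM in before 5, 6 and 11. The muscle median was 236 times the MuSC median. Casq2, the slow and cardiac calsequestrin, ran from 7.83 to 31.9 TPM in transplanted muscle and from 14.7 to 27.0 TPM in sham muscle. MuSC libraries spanned a wider range: 99.9, 24.6 and 6.99 TPM in after 5, 6 and 11, against 73.4, 53.4 and 29.9 TPM in before 5, 6 and 11. The muscle median of Casq2 was 0.557 times the MuSC median, with ranges that overlapped.

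Atp2a1, the fast-fibre pump, was the member with the highest muscle median, with 10849, 12447 and 13428 TPM in transplanted muscle and 10636, 12860 and 15315 TPM in sham muscle. It ranked 17th to 22nd of all genes there. In MuSCs it had 30.9, 17.4 and 5.49 TPM in after 5, 6 and 11, against 30.3, 15.3 and 10.4 TPM in before 5, 6 and 11, and the muscle median was 787 times the MuSC median. Atp2a2, the slow-fibre pump that other cells also use in the endoplasmic reticulum, had 31, 147 and 262 TPM in transplanted muscle and 66.9, 140 and 189 TPM in sham muscle. It was the most abundant member by median in MuSCs: after 5, 6 and 11 had 181, 69.2 and 64.7 TPM, against 159, 76.6 and 134 TPM in before 5, 6 and 11. The muscle median was 1.33 times the MuSC median.

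As a share of the pair, Atp2a2 made up 0.235% to 2.36% of pump TPM in muscle and 79.9% to 92.8% in MuSCs. For the calsequestrins, Casq2 made up 0.460% to 1.92% in muscle and 77.5% to 88.0% in MuSCs. Both pairs thus had opposite majority paralogs in the 2 tissues, in every library. Cardiac markers other than these genes were read beside them. Their list summed to 8.89 to 38.2 TPM in muscle and 172 to 894 TPM in MuSCs. The MuSC sum was mostly Tnnt2 and Myl4 (MuSC medians 363 and 281 TPM), which immature skeletal muscle also expresses. Myl7 was at 0 in every MuSC and every muscle library. MuSC medians of the rest were 0.23 TPM for Nppb, 0.24 for Tnni3, 0.095 for Myh6 and 0 for Nppa. The part of these cardiac markers in the Casq2 and Atp2a2 levels was not tested.

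**Figure D2:**
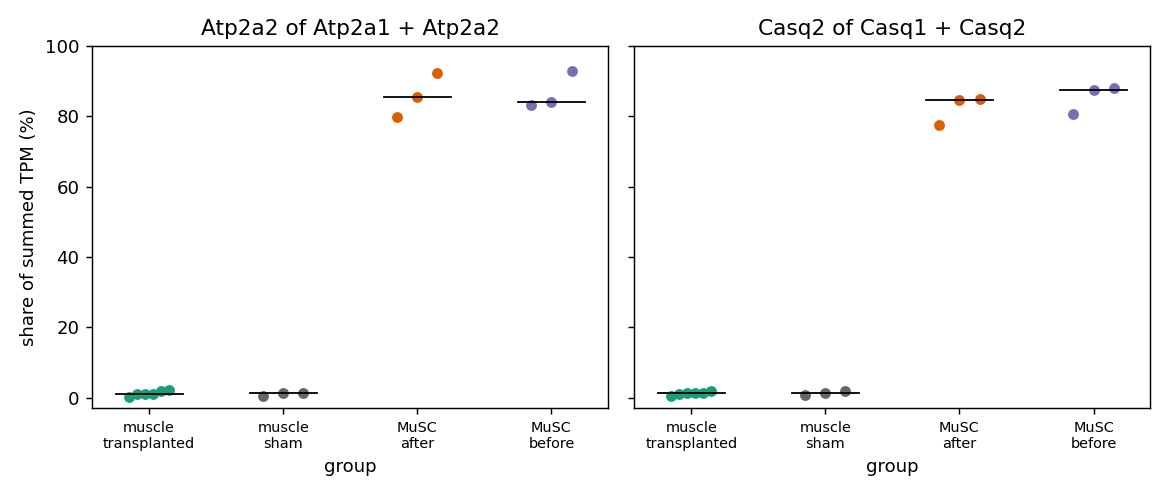
Share of summed TPM (%) taken by Atp2a2 within Atp2a1 and Atp2a2 (left) and by Casq2 within Casq1 and Casq2 (right), 1 point per library, with a bar at the group median. MuSC libraries lie between 77.5% and 92.8% and muscle libraries at or below 2.36%.

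The inhibitors were scarce in both tissues. Sln had 0.78, 3.09 and 12.5 TPM (lowest, median, highest) in transplanted muscle, against 4.61, 5.05 and 5.58 TPM in sham muscle. Sln counts were 0 in all 6 MuSC libraries, where a count of 0 allows up to 3 counts per library. Pln had 1.28, 2.86 and 5.92 TPM in transplanted muscle, against 2.03, 3.04 and 3.56 TPM in sham muscle. Pln had a count of 1 in after 11 and of 3 in before 11, and 0 in the other MuSC libraries. Together they reached 0.0156 to 0.115 TPM per 100 TPM of pump in muscle. Mrln (myoregulin), a pump inhibitor of the same kind, had 78.3 to 168 TPM in transplanted and 129 to 205 TPM in sham muscle, above Sln and Pln in every muscle library. Cep85l, at a muscle median of 5.02 TPM, overlaps Pln on the opposite strand from gene start to gene end. With a kit that does not mark strand, reads from any exon stretch common to both could not be told apart. Whether their exons overlap was not examined. The same limit applies to Atp2a1 and Rabep2, but Rabep2 had a muscle median of only 28 TPM.

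Pvalb, the buffer that speeds relaxation of fast fibres, had 10677, 11910 and 15422 TPM in transplanted muscle and 10261, 12318 and 17706 TPM in sham muscle. Sham 12 was highest. In MuSCs a single count was found, in after 6, and the other 5 libraries had 0. From high to low the muscle medians ran Atp2a1, Pvalb, Casq1, Cacna1s, Ryr1, Stac3, Atp2a2, Casq2, Sln and Pln. Neighbours overlapped in range except Pvalb with Casq1, Casq1 with Cacna1s, and Stac3 with Atp2a2. In MuSCs the order was Atp2a2, Stac3, Casq2, Atp2a1, Ryr1, Cacna1s and Casq1, each overlapping its neighbours, with Sln, Pln and Pvalb at a median of 0. The members together made up 2.35% to 3.62% of muscle TPM and 0.0203% to 0.0454% of MuSC TPM.

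Among 20 partners of the triad, the junction where Ryr1 meets the voltage sensor, 13 were above in all muscle libraries and 2 below. Of the 13776 genes with a mean of at least 1 TPM in either tissue, 16.2% were above and 40.9% below. The muscle and MuSC medians were 379 and 4.6 TPM for Trdn (triadin, an anchor of calsequestrin) and 600 and 10.7 TPM for Hrc, a calcium-binding protein of the reticulum. Among the 21 measured of 23 other calcium pumps, regulators and channels, 7 were above and 3 below, against the same shares. These lists were counted without the minimum of 1 TPM. Atp2b2, at 0.04 to 0.11 TPM in muscle and 0 in MuSCs, is among the 7. Genes higher in MuSCs, named after their values were seen, included Calr (calreticulin, a calcium store protein of the endoplasmic reticulum), with medians of 88.4 TPM in muscle and 511 TPM in MuSCs. Fkbp1a, which binds Ryr1, had 91.6 TPM in muscle and 451 TPM in MuSCs, and Itpr3, an inositol trisphosphate receptor, 0.46 TPM in muscle and 14.4 TPM in MuSCs.

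MuSC libraries after and before transplantation were compared. The later biopsy was from an area without transplanted cells, so this is a comparison of biopsies and not of the transplanted cells. Expression per cell and the mix of cells cannot be told apart in it. Of the 7 members tested, 0 passed an adjusted p of 0.05 in edgeR's quasi-likelihood test with Benjamini-Hochberg adjustment over 13512 genes, of which 0% passed. Sln, Pln and Pvalb were below the filter on low counts. Without adjustment 0 members were below 0.05, against 2.26% of genes, and 0 had groups that did not overlap, against 6.33%. The log2 difference, after minus before, was -0.39 ± 0.93 (SE) for Cacna1s, -0.36 ± 0.34 for Ryr1 and 0.39 ± 0.43 for Stac3. It was -0.26 ± 0.82 for Casq1, -0.36 ± 0.80 for Casq2, -0.08 ± 0.51 for Atp2a1 and -0.06 ± 0.31 for Atp2a2. Adjusted p by edgeR's test ran from 0.873 to 0.964. This fit had no term for the mouse, and a fit with the mouse as a block is among the alternatives below.

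The difference was negative for 6 of the 7, against 48.6% of genes, and the median was -0.26, against 0.02 for all genes. In scaled counts Cacna1s, Casq1 and Ryr1 were lower after in all 3 mice, against 10.3% of genes, whereas in TPM this held for Cacna1s alone. Ryr1 stayed negative (-0.70 to -0.12) and Stac3 positive (0.0061 to 0.66) with each library left out in turn, but the other 5 members turned sign. Without after 11 the differences were 0.28 for Atp2a1, 0.07 for Atp2a2, 0.23 for Casq1, 0.14 for Casq2 and 0.14 for Cacna1s, and the members' median was 0.14. Without before 5 they were 0.18 for Atp2a1, 0.04 for Atp2a2, 0.30 for Casq1 and 0.07 for Cacna1s, and without after 6 Atp2a2 was 0.05. Mature myofibre markers moved the same way without passing: 8 of the 9 tested were lower after, with a median of -0.72. Their part in the members' values was not tested.

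**Figure D3:**
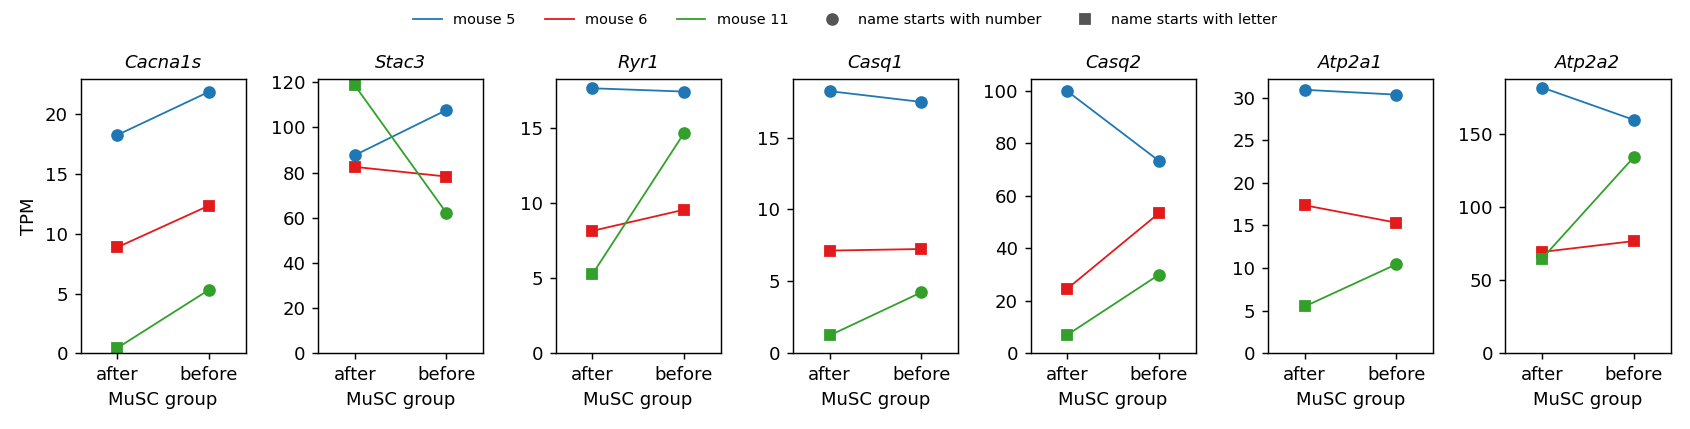
TPM (linear axes from 0) of the 7 members measured in MuSCs, after and before transplantation, with a line per mouse and a marker for the form of the library name. Cacna1s is lower after in each mouse, mouse 5 is highest in both states for 6 of the 7, and Stac3 is highest in after 11.

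Library names in the labels put the number first in after 5, before 5 and before 11 and a letter first in after 6, after 11 and before 6. Atp2a2 had 134 to 181 TPM in the number-first and 64.7 to 76.6 TPM in the letter-first libraries, without overlap. Ryr1 had 14.7 to 17.7 TPM in the number-first and 5.25 to 9.56 TPM in the letter-first libraries. These 2 of 7 members compare with 46.5% of 12189 genes that were higher in every number-first library. With the name form as a term the after minus before difference was 0.10 ± 0.19 for Atp2a2 and -0.25 for Ryr1. What the form stands for is not given in the labels.

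Of the triad partners, 15 of 19 tested were negative, against 48.6% of genes, and 0 passed the adjusted threshold. Their median was -0.41, and -0.17 without after 11 and -0.031 without before 6. The lowest were Sypl2 (mitsugumin 29, a triad membrane protein) at -1.51 ± 0.89 and Hrc at -0.76 ± 0.75, while Fkbp1a was 0.41 ± 0.40 and S100a1, a calcium-binding modulator of Ryr1, 0.28 ± 0.32. Trdn was -0.60 ± 1.42 and Jph1, a junctophilin that joins the membranes of the triad, -0.45 ± 0.61. Without after 11 these were -1.0 for Sypl2, -0.29 for Hrc, 0.16 for Fkbp1a, -0.028 for Trdn and -0.0020 for Jph1, and without after 5 Trdn was -3.68, Hrc -1.78 and Jph1 -1.05. The other calcium genes did not share that sign: 12 of 18 tested were positive, with a median of 0.07 and 0 past the adjusted threshold. Itpr3 had 31.5, 13 and 15.8 TPM in after 5, 6 and 11, against 11.9, 7.61 and 15.9 TPM in before 5, 6 and 11, a log2 difference of 0.93 ± 0.30 and the 1 gene of the 18 with an unadjusted p below 0.05 in edgeR's test, against 2.26% of all genes. Calr differed by 0.59 ± 0.29, Stim2, a reticulum calcium sensor, by -0.44 ± 0.29 and Tmem38b, a reticulum cation channel, by -0.45 ± 0.25. Ryr3, another release channel, differed by -0.29 ± 1.02, Itpr1 by 0.05 ± 0.39 and Mrln by 0.00 ± 0.71.

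Transplanted and sham muscle were compared to ask whether transplantation altered the muscle. Of the 10 members 0 passed an adjusted p of 0.05 in edgeR's quasi-likelihood test with Benjamini-Hochberg adjustment over 14375 genes, of which 0% passed. Without adjustment 0 were below 0.05, against 7.08% of genes, and 0 had groups that did not overlap, against 2.11%. The abundant members had narrow differences: 0.05 ± 0.10 (log2, transplanted minus sham, ± SE) for Cacna1s, -0.02 ± 0.10 for Stac3, 0.03 ± 0.12 for Ryr1, 0.14 ± 0.15 for Casq1, 0.09 ± 0.13 for Atp2a1 and 0.07 ± 0.15 for Pvalb. The scarcer members had wide ones: 0.16 ± 0.58 for Atp2a2, 0.08 ± 0.40 for Casq2, 0.53 ± 0.42 for Pln and -0.72 ± 0.58 for Sln. Adjusted p by edgeR ran from 0.802 to 0.975. The difference was positive for 8 of 10, against 49.9% of genes, with a median of 0.08. Some marker lists also shared a sign in this comparison and others were mixed, with 0 genes past the adjusted threshold. Mixed lists were endothelial (3 of 5 positive), smooth muscle (3 of 6), MuSC (2 of 5) and differentiating myoblast (1 of 2). Cardiac (2 of 3) and mature myofibre (8 of 10) lists were mixed too. The difference was negative for 5 of 5 adipocyte genes (median -1.57, 4 with an unadjusted p below 0.05 in edgeR's test), 6 of 6 fibroadipogenic genes (median -0.40, 3 below 0.05), 5 of 5 macrophage genes (median -0.45), 3 of 3 tenocyte genes and 4 of 4 Schwann genes. It was positive for 12 of 12 fast fibre genes (median 0.15) and 11 of 11 slow fibre genes (median 0.22). Adipocyte markers summed to 10.2 to 75.3 TPM in transplanted and 18.2 to 260.5 TPM in sham muscle, and fibroadipogenic markers to 188 to 262 TPM in transplanted and 255 to 443 TPM in sham muscle. Their part in the members' differences was not tested.

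**Figure D4:**
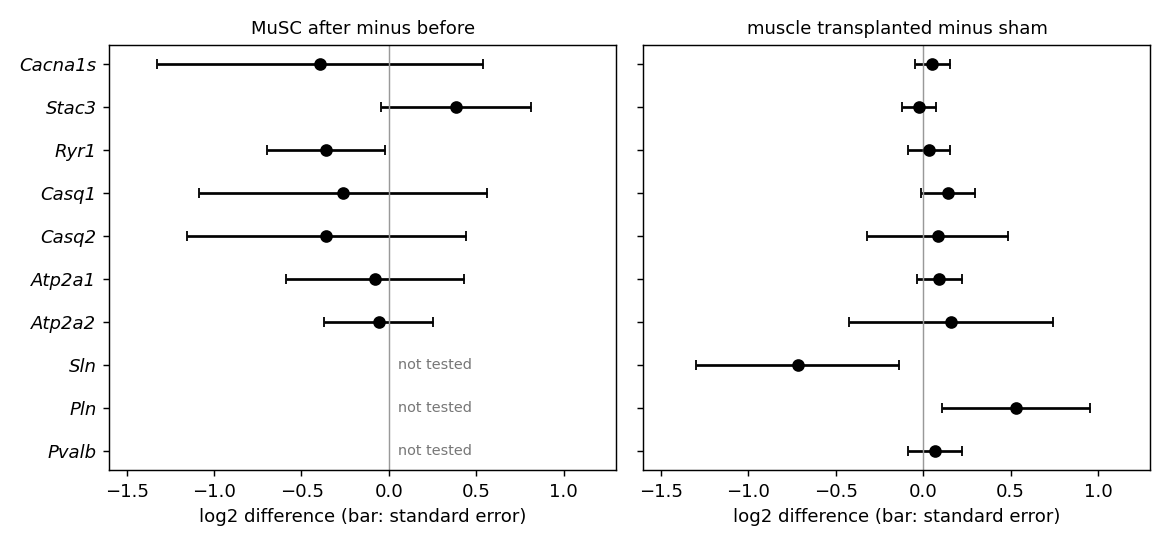
Log2 difference of each member with its standard error, MuSC after minus before (left) and muscle transplanted minus sham (right), from edgeR's quasi-likelihood fit. No member passes the threshold, and in muscle the 6 abundant members lie within 0.14 of 0 on the log2 scale while Atp2a2, Casq2, Sln and Pln have wide errors.

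Of the 4 members with wide errors, Atp2a2, Casq2 and Sln had differences of opposite sign in the 2 muscle tables, and Pln had the same sign in both. Atp2a2 had 133, 31 and 162 TPM in transplanted 14, 4 and 94, against 140 and 189 TPM in shams 3 and 192, a log2 difference of -0.62 ± 0.49 within the 2-sham table. Atp2a2 had 241, 131 and 262 TPM in transplanted 5, 6 and 11, against 66.9 TPM in sham 12, a difference of 2.05 ± 0.43 within the 1-sham table. Sham 12 was below all 3 of its transplanted libraries. Casq2 followed, at -0.52 ± 0.35 and 1.34 ± 0.35 in the 2-sham and 1-sham tables. Sln had 1.77, 0.78 and 2.27 TPM in transplanted 14, 4 and 94, against 5.05 and 5.58 TPM in shams 3 and 192, at -1.75 ± 0.37. Its counts were low, at 35, 16 and 35 in these transplanted libraries and 86 and 89 in the shams. Adjusted p for Sln by edgeR's quasi-likelihood test in the 2-sham table alone was 0.9999. Within the 1-sham table Sln had 12.5, 3.90 and 6.90 TPM in transplanted 5, 6 and 11, against 4.61 TPM in sham 12, at 1.15 ± 0.60. Pln differed by 0.05 ± 0.43 in the 2-sham and by 1.56 ± 0.53 in the 1-sham table. Sham 12 was the only sham of the 1-sham table, so the SEs given within it measure no spread between shams.

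The difference between the tables, chosen for testing after these values were seen, was 2.67 ± 0.86 for Atp2a2, 1.86 ± 0.62 for Casq2, 2.89 ± 0.77 for Sln and 1.5 ± 0.80 for Pln. Adjusted p by edgeR's quasi-likelihood test with Benjamini-Hochberg was 0.406, 0.406, 0.375 and 0.628 in that order, and 0% of the 14375 genes passed. It rests on 1 library, sham 12. Without transplanted 4 the differences over both tables were 0.62 for Atp2a2, 0.39 for Casq2, 0.82 for Pln and -0.35 for Sln, and without sham 12 they were -0.62, -0.52, 0.05 and -1.75.

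These 4 members also varied most between muscle libraries, along with Myh7, the slow myosin heavy chain. Myh7 had 35 TPM in transplanted 4 and 432 TPM in transplanted 11, a ratio of 12.4. Between the same libraries the ratio was 8.46 for Atp2a2, 4.07 for Casq2, 4.63 for Pln and 8.85 for Sln. Transplanted 4 was the lowest muscle library for all 4. Pearson correlation with Myh7 over the 9 muscle libraries, in log2(TPM + 1) centred within tables, was 0.996 for Atp2a2, 0.96 for Casq2, 0.78 for Sln and 0.76 for Pln. Without transplanted 4 it was 0.99, 0.91, 0.62 and 0.54 over 8 libraries, in the same order. The other 6 members correlated with Myh7 at -0.57 to 0.01 and with Myh4, the fastest myosin heavy chain, at 0.50 to 0.97. Slow fibre markers summed to 441 to 5357 TPM in transplanted and 939 to 2881 TPM in sham muscle, and their part in the members' differences was not tested. The libraries come from the same muscle, and these correlations are a description.

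**Figure D5:**
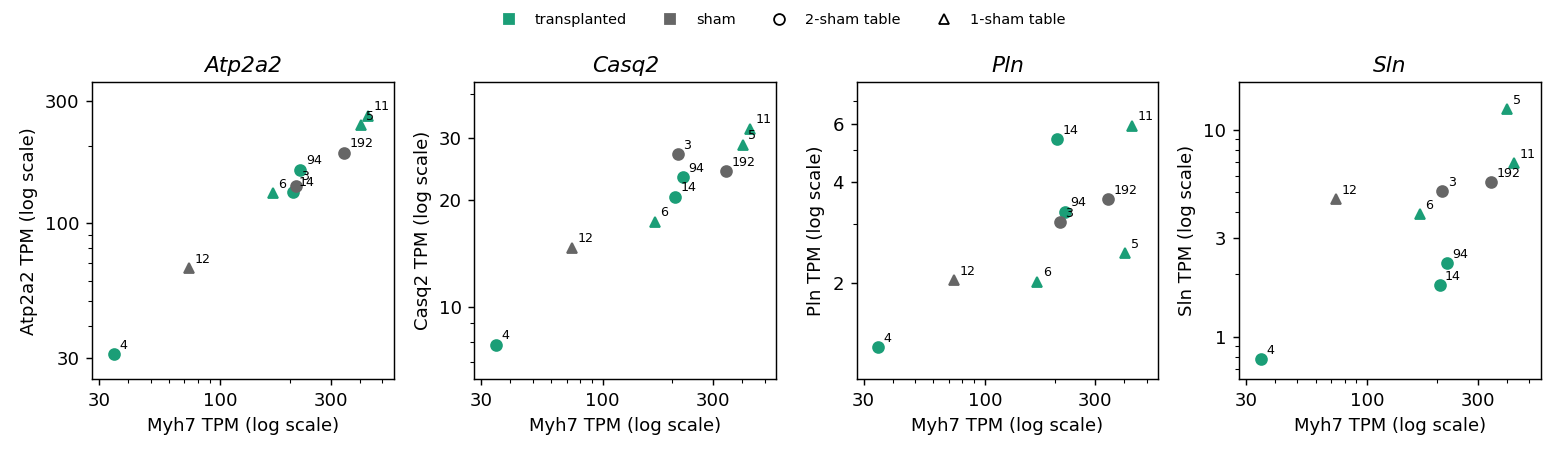
TPM of Atp2a2, Casq2, Pln and Sln against Myh7 TPM (log axes) in the 9 muscle libraries, numbered by mouse, with colour for group and marker shape for table. Atp2a2 and Casq2 are high where Myh7 is high in both groups, transplanted 4 is lowest in each panel, and sham 12 is lower than the other shams.

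By likeness over the 7120 genes with a mean of at least 5 TPM, the 3 genes closest to Atp2a2 in muscle were Myh7, Tnni1 and Tpm3 (r from 0.991 to 0.996), all of the slow contractile set. Those closest to Pvalb were Tnnc2, Tpbgl and Cdk2ap1 (0.97 to 0.98), of which Tnnc2 is the fast troponin C. Casq2 was closest to Sdhaf4, Fars2 and Coq8a (0.97 to 0.98), genes of mitochondrial proteins. The closest to Atp2a1 were Maco1, Fam114a2 and Entpd4, to Ryr1 Kpna1, Cpeb3 and Alkbh5, to Stac3 Cript, Mtap and Abraxas2, and to Cacna1s Ccdc181, Mbd5 and 1600014C10Rik (0.962 to 0.997). Casq1 was closest to Bmyc, Ak1 and Nudcd3, Sln to Ppm1j, Kbtbd13 and Vps28, and Pln to Myl12a, Samd4b and Efcab6 (0.89 to 0.98). In the 6 MuSC libraries, over 9100 genes, Atp2a1 was closest to Casq1 (r = 0.997), and the 6 members other than Stac3 correlated with each other at 0.627 to 0.997. Stac3 stood apart, at -0.33 to -0.04 with those 6. The 6 correlated with Ckm, a mature fibre gene, at 0.48 to 0.97 and with Myog, a differentiation factor, at 0.36 to 0.91. Cacna1s was highest and Atp2a2 lowest of the 6 with either gene. Stac3 was at -0.36 with Ckm and 0.08 with Myog.

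Of the triad partners in muscle, 15 of 18 tested were positive, against 49.9% of genes, with a median of 0.09 and 0 past the adjusted threshold. Sypl2 was at 0.23 ± 0.12 and Jsrp1 (JP-45, which binds the voltage sensor and calsequestrin) at 0.18 ± 0.09. Cacna2d1, an auxiliary subunit of the voltage sensor, was at -0.08 ± 0.14, Mtm1, a lipid phosphatase needed for triads, at -0.11 ± 0.12, Trdn at 0.03 ± 0.24, Jph1 at 0.06 ± 0.12 and Hrc at 0.06 ± 0.11. The other calcium genes split evenly, 10 of 20 positive, with 0 past the adjusted threshold. Without adjustment 2 of the 20, Atp2b4 and Orai1, had a p below 0.05 in edgeR's test, against 7.08% of all genes. Atp2b4, a plasma membrane calcium pump, averaged 12.6 ± 2.12 CPM (TMM-scaled counts) in transplanted and 18.3 ± 4.99 in sham muscle (SD, n = 6 and 3), a log2 difference of -0.56 ± 0.17. Orai1, the store-operated entry channel, was at 0.21 ± 0.09, Itpr3 at 0.33 ± 0.20, Itpr2 at -0.34 ± 0.18 and Itpr1 at -0.15 ± 0.13. Mrln was at -0.17 ± 0.21, Ryr3 at 0.28 ± 0.52 and Calr at 0.04 ± 0.08.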

How the data were processed

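The authors deposited 3 tables, 1 of MuSC and 2 of muscle libraries, of 56953 genes each. Per the file headers these hold estimated (expected) counts, TPM and FPKM. The deposited expected counts were not all whole and were rounded before testing, and the authors' TPM values were used as deposited for levels. FPKM was not used. RNA was extracted with Trizol and libraries made with the NEBNext Ultra RNA kit, per the labels' protocols. The sources used here do not give the aligner or quantifier. GRCm38 and mm10 appear in the submitters' processing notes, yet only 1409 of 52029 genes shared with the GENCODE annotation had the same coordinates, so none from the tables are printed. Another 3 columns, of a library that matched no label, were not used.

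edgeR 4.0.16 (R 4.3.3) was fitted with its quasi-likelihood test on all genes that passed filterByExpr (minimum count 10), with TMM scaling and 2-sided Benjamini-Hochberg adjustment at 0.05. MuSCs were fitted as 3 after against 3 before, and muscle as 6 transplanted against 3 sham with the table as a term. SE is the log2 difference over the root of F. The fit was run on simulated counts with the same variability in all genes and no effect of table, mouse or name form. That run does not measure how the fit behaves in these data. DESeq2 1.42.0, other scalings, filters, tables, terms and each library left out were alternatives. Libraries of a group carry different mouse numbers. Mouse numbers 5, 6 and 11 pair the MuSC libraries, since the labels call the cells autologous. Deviations from the group means correlated at 0.32, 0.41 and -0.47 for these mice. No pair of libraries of the same group and table agreed within sampling noise, and pairs across tables were not compared. Counting limits cover counting error only.

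The 10 members and the gene lists were chosen with earlier results of these data known. Named genes were the members, all of them, and from the triad and other calcium lists any gene past the threshold, otherwise the 2 highest and 2 lowest by signed F, with Trdn, Jph1, Hrc, Mrln, Ryr3, Calr and Itpr1 in any case. Likeness was Pearson correlation over log2(TPM + 1).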

Additional observations from a re-analysis of the deposited data

How the results depend on the processing

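No member passed the adjusted threshold under any alternative run. The count of genes past it in MuSCs was 16 with DESeq2 and 0 with the mouse as a replicate block, which changed no member's call. Of the members and named genes, the paired fit turned the sign of Mrln alone, at 0.061. Atp2a2 was 0.10 with the library name form as a term. In muscle that count was 6 with DESeq2, 12 with no filter, 1 in the 2-sham table alone, 41 in the 1-sham table alone (its single sham taken to vary as its transplanted libraries do) and 0 to 4 with a library left out, with 2 without transplanted 94 and 4 without sham 192.

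Signs turned in muscle as follows, and the cause was not tested. In the 2-sham table alone the log2 difference was -0.62 for Atp2a2, -0.52 for Casq2, 0.023 for Stac3, 0.11 for Cacna2d1, -0.034 for Trdn, -0.063 for Hrc and 0.051 for Itpr1. In the 1-sham table alone it was -0.069 for Ryr1, 1.15 for Sln, -0.052 for Pvalb, 0.00067 for Mtm1, -0.033 for Jph1, -0.69 for Ryr3 and -0.028 for Calr. With no term for the table it was -0.020 for Ryr1, 0.13 for Sln and -0.11 for Trdn.

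With each library left out in turn, MuSC differences ranged from -0.37 to 0.28 for Atp2a1, -0.35 to 0.069 for Atp2a2, -0.93 to 0.30 for Casq1, -1.41 to 0.14 for Casq2, -1.0 to 0.14 for Cacna1s, -0.70 to -0.12 for Ryr1, 0.0061 to 0.66 for Stac3, -0.40 to 0.49 for Mrln, -0.21 to 0.34 for Itpr1 and -2.21 to 0.24 for Ryr3. In muscle they ranged from -0.62 to 0.62 for Atp2a2, -0.52 to 0.43 for Casq2, -0.077 to 0.11 for Ryr1, -0.015 to 0.13 for Cacna1s, -0.049 to 0.15 for Pvalb, -0.079 to 0.028 for Stac3, -0.20 to 0.12 for Cacna2d1, -0.18 to 0.013 for Mtm1, -0.19 to 0.15 for Trdn, -0.064 to 0.17 for Jph1, -0.057 to 0.11 for Hrc, -0.15 to 1.11 for Ryr3 and -0.28 to 0.055 for Itpr1. Low counts limit Sln and Pln in muscle and leave them, with Pvalb, untested in MuSCs.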
